A study of Mus musculus with 42 samples.

Results

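Hox binding was examined around 10 genes of the Notch pathway: the receptor genes Notch1, Notch2 and Notch3, the ligand genes Dll1, Dll3, Dll4, Jag1 and Jag2, and the target genes Hes1 and Hes5. A binding event belonged to a gene when its position (build mm10) lay inside the GENCODE gene span or within 50 kb on either side, and events of all 21 event lists within 100 bp of each other were joined into 1 site. These windows held 228 of the 377386 sites genome-wide, and the 10 genes are among 21911 protein-coding genes. The rule used no measured value.

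Notch is a receptor that is cut at the membrane when it meets a ligand on a neighbouring cell. Its intracellular domain then enters the nucleus and joins the DNA-binding protein RBPJ at target genes. The Hes genes are classical targets and encode repressors that hold back neuronal differentiation, and in the spinal cord this exchange between neighbours sets when progenitors leave the cycle to become neurons. No RNA was measured in these libraries, so the levels of the genes and the markers of the cell types could not be checked here.

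The libraries are ChIP-seq of mouse embryoid bodies (EBs) grown from Ainv15 stem cell lines, each line with 1 copy of a tagged Hox gene at the HPRT locus that doxycycline (Dox) switches on. Retinoic acid and the Hedgehog agonist SAG were given from day 0 and Dox from day 2, and cells were taken after 24 h of Dox (day 3) or 48 h (day 4), in cultures that move from progenitors to motor neurons and interneurons. The EB lists come from EBs given 12 h of Dox without retinoic acid or SAG. The comparisons ask how binding differs between Hox factors, between factors and their chimeras, between stages and with cofactors.

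At day 3 there were 7 lists of full-length factors and 4 of chimeras. Of the former, HOXC6 and HOXC8 are brachial factors, HOXC9 is thoracic and HOXC10 lumbar, HOXA9 and HOXD9 are paralogs of HOXC9, and HOXC13 was expressed from a human cDNA. In HOXC13:C10.1 the part of HOXC13 with its homeodomain was replaced with that of HOXC10, and HOXC10:C13.1 is the reverse exchange. In HOXC13:C10.2 and HOXC10:C13.2 the exchanged part starts further upstream and takes in a conserved stretch before the homeodomain. HOXC6, HOXC9 and HOXC10 also had day 4 lists, and HOXC6 and HOXC9 had EB lists. The cofactor MEIS was assayed at day 3 with V5-tagged transgenes (iHoxc6.V5, iHoxc9.V5 and iHoxc10.V5 lines), and the cofactor PBX at day 4 with Flag-tagged ones (iFlag.Hoxc9 and iFlag.Hoxc10 lines).

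Most HOX libraries were made with the Flag antibody. The exceptions are 1 of the 3 HOXC10 day 3 libraries, made from a V5 line with an antibody to HOXC10, and 1 of 2 libraries each for HOXA9, HOXD9 and HOXC13, made from HA lines with an HA antibody. The labels put all libraries of HOXA9, HOXD9 and HOXC13 on 1 flow cell and no library of HOXC9 or HOXC10 on it, so factor and flow cell cannot be told apart in comparisons across that line. The headers of the lists named 40 libraries of 5.04 to 32.9 M aligned reads, of which a fraction of 0.008 to 0.527 was assigned to binding. The HOX lists held 17900 to 128388 events and the MEIS lists 8219 to 22749. The PBX lists held 1165 and 848 events, at signal fractions of 0.009 and 0.008. Each list pools its libraries (1 library in 5 lists, 2 in 14, 3 in 1 and 4 in 1), so no value below has a replicate error and none was tested. Intervals in square brackets are exact (Clopper-Pearson) 95% intervals over sites or events. They cover counting error only.

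Sites are named by gene and by the distance of their centre from the transcription start site (TSS) of its principal transcript, with a minus sign for upstream. The 6 sites that head the order by number of lists among those described below are shown first, since the comparisons of factors and stages turn on them. Each is 101 bases around the site's centre on the plus strand of GRCm38.p6 (the assembly of mm10), read from the RefSeq genome. Capitals mark TTTAT, TAAT and TTTAC on either strand, letters that posterior, central and HOXC13 homeodomains are known to favour, and overlapping matches run together.
Dll1 +32.8 kb, chr17:15343123-15343223: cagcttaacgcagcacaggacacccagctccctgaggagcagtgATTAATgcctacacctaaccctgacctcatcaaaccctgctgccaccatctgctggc
Dll1 -6.4 kb, chr17:15382296-15382396: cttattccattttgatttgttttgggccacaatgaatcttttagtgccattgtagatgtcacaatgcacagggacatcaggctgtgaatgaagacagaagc
Notch1 +3.1 kb, chr2:26500661-26500761: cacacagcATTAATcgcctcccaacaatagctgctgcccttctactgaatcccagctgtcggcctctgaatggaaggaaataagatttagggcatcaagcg
Notch2 +91.8 kb, chr3:98105269-98105369: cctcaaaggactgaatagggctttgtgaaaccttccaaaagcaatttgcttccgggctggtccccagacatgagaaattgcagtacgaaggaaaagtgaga
Jag1 +52.0 kb, chr2:137064625-137064725: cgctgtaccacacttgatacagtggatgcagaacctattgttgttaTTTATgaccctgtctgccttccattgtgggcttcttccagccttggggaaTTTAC
Hes5 +36.0 kb, chr4:154996838-154996938: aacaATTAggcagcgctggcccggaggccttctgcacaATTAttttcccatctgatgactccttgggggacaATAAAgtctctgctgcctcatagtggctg
The Dll1 and Notch1 sites with the most lists both hold the run ATTAAT, while the Dll1 -6.4 kb and Notch2 +91.8 kb windows hold none of these letters.

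Some Hox events lay at the starts of ligand and target genes. Shown next are the 200 bases before the RefSeq starts of Dll1 and Hes5, in the direction of the gene, from the RefSeq table of the same build. They were chosen after the values were seen, because 11 and 10 lists had an event there. Capitals also mark TGGGAA, the core letters of RBPJ sites. Hes1 has no entry in that table.
Dll1, minus strand, chr17:15376933-15377132: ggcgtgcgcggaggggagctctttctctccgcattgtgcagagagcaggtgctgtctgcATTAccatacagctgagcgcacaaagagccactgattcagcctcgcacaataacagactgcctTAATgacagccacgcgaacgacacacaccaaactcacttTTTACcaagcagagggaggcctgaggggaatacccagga
Hes5, plus strand, chr4:154960723-154960922: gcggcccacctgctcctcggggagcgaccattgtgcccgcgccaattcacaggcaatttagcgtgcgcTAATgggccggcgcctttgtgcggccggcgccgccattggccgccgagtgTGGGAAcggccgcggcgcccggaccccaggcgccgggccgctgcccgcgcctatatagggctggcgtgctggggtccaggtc
The Dll1 window holds TAAT 2 times and TTTAC once, with the site's centre 104 bp before the start. The Hes5 window holds TAAT and TGGGAA, with the site's centre 171 bp before the start. Of 32851 RefSeq promoter windows of this length, 47.0% hold TAAT on either strand, 22.8% TTTAC, 30.9% TTTAT and 17.3% TGGGAA.

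Sites were spread unevenly over the 10 genes. Per 100 kb of window, Hes1 had the most (34.8, 36 sites), followed by Dll1 (27.4, 30 sites), Jag1 (26.6, 36 sites) and Notch2 (23.7, 56 sites). Dll3 had 16.6 sites per 100 kb, at percentile 75.25 of protein-coding genes. Notch1 had 12.6, near the median of protein-coding genes (11.7). The remaining 4 lay below it, with 9.08 for Dll4, 8.87 for Hes5, 5.48 for Notch3 and 4.10 for Jag2. Among protein-coding genes Hes1 stood at percentile 98.9 of site density and Jag2 at percentile 11.6, so the members spanned almost the whole range.

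**Figure D1:**
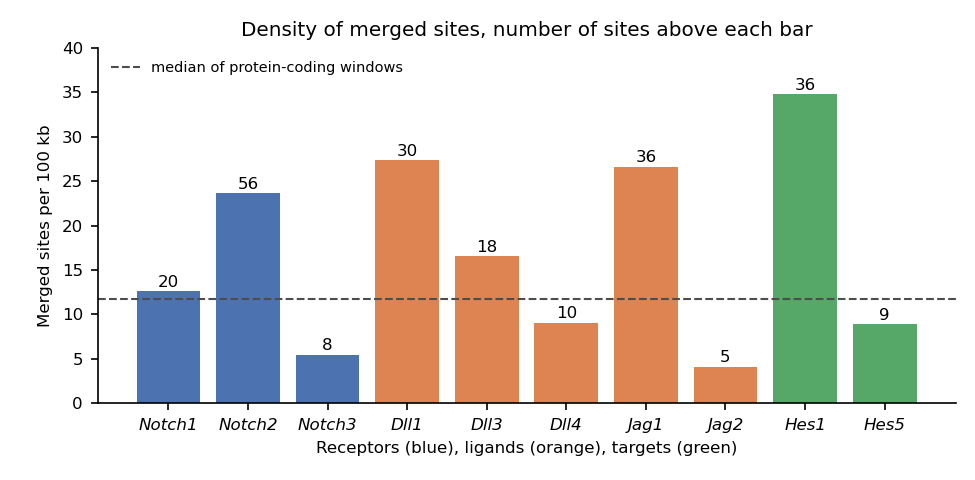
Sites of all 21 lists per 100 kb of gene window (vertical axis) for the 10 Notch pathway genes (bars, number of sites above each); the dashed line is the median of protein-coding gene windows. Hes1, Dll1, Jag1 and Notch2 stand above 20 sites per 100 kb and Jag2 and Notch3 below 6.

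Of the 228 sites, 102 (44.7%) were held by 1 list, against 45.8% of sites genome-wide, and 22 (9.65%) by 10 or more lists, against 5.13%. No site was held by all lists, the most being 19. By position, 80 sites lay inside the span of the member gene, 70 of them in introns, 114 lay between genes and 11 lay within 1 kb of a TSS of the member. A member's TSS was the nearest of any protein-coding gene for 164 sites. This was so for all 36 sites of Hes1 and of Jag1, but for only 3 of 18 at Dll3, 3 of 8 at Notch3, 3 of 9 at Hes5 and 2 of 5 at Jag2, whose windows hold other genes.

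**Figure D2:**
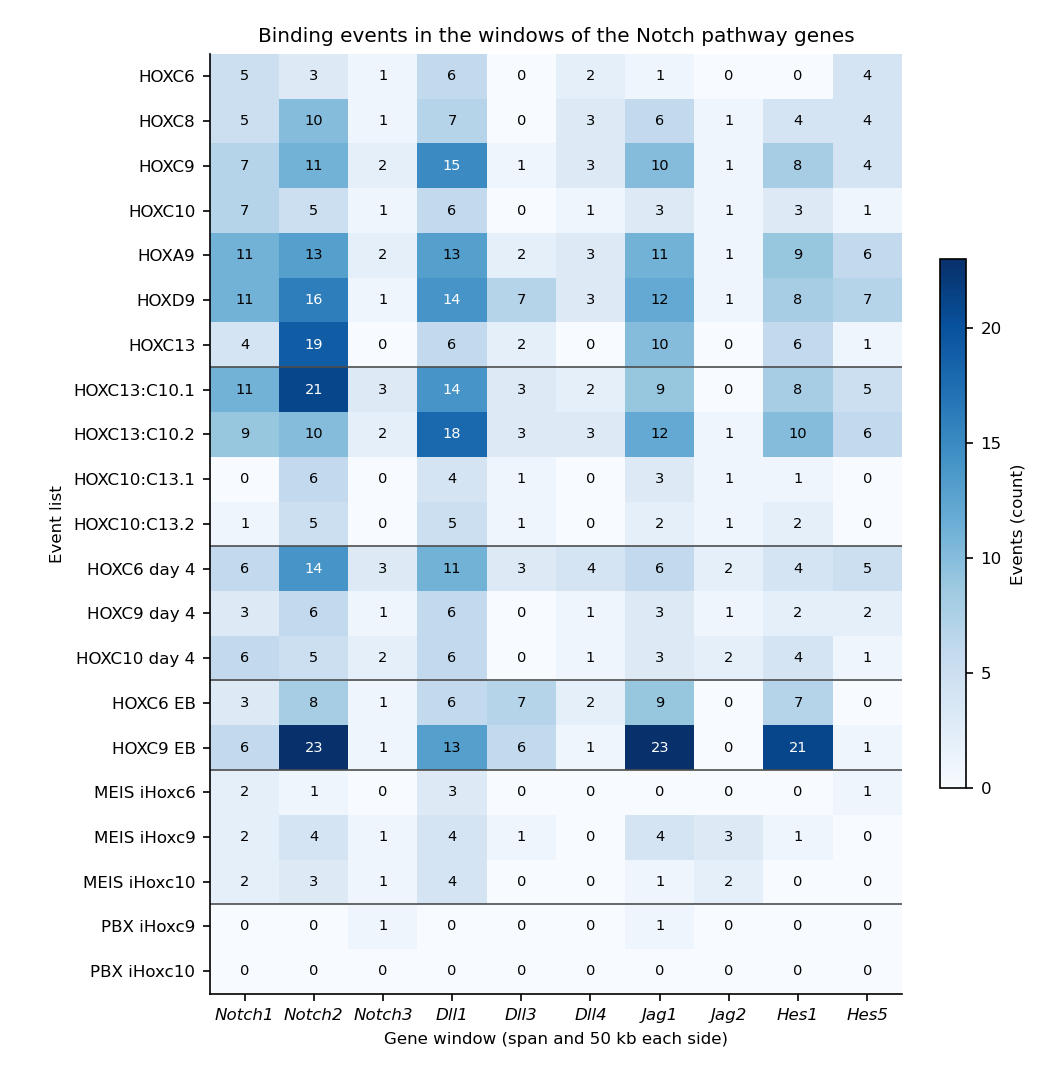
Number of events in each gene's window (columns) in each of the 21 lists (rows), with colour and numeral giving the same count. HOXC9 EB has 23 events at Notch2, 23 at Jag1 and 21 at Hes1, while no HOXC10:C13 list has more than 6 at a gene and the PBX rows are nearly all 0.

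Among the receptors, Notch1, the best known of the family in neural progenitors, had the highest-ranked site of all members. The site 3.1 kb downstream of its TSS, in an exon of a non-coding transcript of the gene, was held by 16 lists. Its estimated reads at day 3 were highest for HOXA9 (1774.1) and HOXD9 (1505.1), followed by HOXC9 (826.5), HOXC8 (489.3), HOXC10 (377.7) and HOXC6 (192.6). Counts cannot be compared between lists of unequal depth, so each event is also given as its percentile by reads within its own list, where 100 is the highest. A percentile depends on the length of the list as well, so that percentiles of lists of unequal length are set side by side here as descriptions, and their order need not be that of the ranks. HOXD9 ranked the event 26 of 56400 and HOXA9 66 of 62916. HOXC10 ranked it 885 of 26873 (percentile 96.7), HOXC9 2148 of 74085 (97.1) and HOXC6 2118 of 17900 (88.2), so that HOXC9 and HOXC6 differed in percentile at nearly the same rank. At day 4 the percentiles were 98.2 for HOXC6, 96.2 for HOXC9 and 94.7 for HOXC10, and in EBs they were 68.3 for HOXC6 and 37.4 for HOXC9. All 3 MEIS lists held the site (percentiles 91.8 to 95.6). HOXC13:C10.1 and HOXC13:C10.2, with the HOXC10 homeodomain, were at 95.7 and 98.7. HOXC13 and both HOXC10:C13 chimeras had no event within the site, but HOXC13 had 654.3 reads 166 bp from its centre (percentile 96.6, rank 3888 of 115879) and HOXC10:C13.2 had 52.6 reads at 187 bp (percentile 17.3). Both belong to the next site, +2.9 kb, which the joining distance of 100 bp keeps apart from this one. HOXA9 and HOXD9, among other lists, had a separate event in each of the sites, with 104.1 and 93.0 reads at +2.9 kb.

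HOXA9 and HOXD9 shared all of their Notch1 sites, 11 of 11. Of the 13 Notch1 sites with any day 3 full-length factor, 5 were shared by HOXC6, HOXC9 and HOXC10, the most of any member. The members had 12 such sites among 66 with any of these 3 factors (18.2%, against 10.7% genome-wide), of which Notch1 held 5 and Dll1 3.

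Notch2 encodes a second receptor of progenitors and is the longest of the members. It had the most sites, 56, of which 39 were intronic and 28 were held by 1 list. Its site with the most lists (15), 91.8 kb into the gene in an intron, was among the 4 sites of the members that all 7 day 3 full-length factors held. The event was middling in most lists, from percentile 21.1 (HOXC8) to 91.8 (HOXD9) with HOXC9 at 45.0 among the day 3 full-length factors. A stronger intronic site at +61.4 kb was at percentile 85.1 to 95.8 in 6 of the 7. HOXC13 had no event within it but a weak one (47.5 reads, percentile 8.07) at 141 bp from its centre, in the neighbouring site. There HOXC13:C10.1 had 1207.4 reads (percentile 97.2) and HOXC10:C13.1 62.3 (percentile 32.3). Notch2 was also the gene with the most HOXC13 events, 19, and 11 of the 24 member sites that HOXC13 held without another day 3 full-length factor were here.

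Notch3, a receptor known best from vessel walls and also made in progenitors, had 8 sites. The site with the most lists, 11.7 kb upstream and 10950 bp from the nearest TSS, that of Ephx3, was held by 11. HOXA9 (421.3 reads) and HOXD9 (351.8) were at percentiles 96.1 and 96.8, and HOXC9 (378.9) and HOXC10 (192.2) at 89.4 and 86.2. HOXC6, HOXC8 and HOXC13 had no event there at day 3.

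Among the ligands, Dll1, made by cells on their way to become neurons, carried 6 of the 22 sites held by 10 or more lists. The site at +32.8 kb, between genes, was in 19 of 21 lists, that is in all but the PBX lists. At day 3 HOXC9 had 1025.6 reads and its paralogs 373.2 (HOXA9) and 441.3 (HOXD9), the brachial factors 348.1 (HOXC6) and 524.0 (HOXC8), HOXC10 357.0, and HOXC13 86.5. All but HOXC13 were at percentiles of 95.01 to 98.2, and HOXC13 was at 53.9, below each of them. The HOXC13:C10 chimeras were at 91.5 and 98.3 and the HOXC10:C13 chimeras at 79.1 and 83.7. MEIS in iHoxc9 cells had 342.2 reads there (percentile 97.8).

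A second Dll1 site, 6.4 kb upstream, was in 17 lists, of which 8 split it into 2 events. HOXC8 ranked its event 223 of 44608 (1238.3 reads), HOXA9 330 of 62916 (995.0 reads) and HOXC6 254 of 17900 (517.5 reads). HOXC9 had 994.7 reads at percentile 98.0, and HOXC10 192.8 at 86.2. HOXC6 at day 4 ranked it 122 of 69297 (2360.3 reads). HOXC13 was again lower, with 98.4 reads at percentile 60.5. Nearer to the gene, the site at -1.1 kb, 164 bp from another TSS of Dll1 and printed above, was held by 6 of the 7 day 3 factors, with percentiles from 32.5 (HOXC8) to 83.6 (HOXD9) and no HOXC13, EB or MEIS event. At the principal start itself (-48 bp) HOXC9, HOXA9 and HOXD9 had weak events of 53.6, 68.8 and 76.7 reads. HOXC10 at day 4 had 135.8 reads (percentile 62.0) at 153 bp from that centre, in the neighbouring site.

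Dll3, a divergent ligand that acts on Notch from inside the same cell, had no site in 10 or more lists. Its 2 most prominent sites, +9.9 kb (6 lists) and -7.7 kb inside Timm50 (5 lists), peaked among day 3 full-length factors at percentiles 61.4 (HOXA9) and 64.7 (HOXD9). HOXC6, HOXC8 and HOXC10 had no event in its window at day 3. Of its 18 sites, 7 were found only in EBs.

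Dll4, a ligand of endothelial cells and of spinal interneuron progenitors, had 10 sites. The one with the most lists, 3.5 kb upstream inside the non-coding gene Gm14207, was in 10 lists. HOXA9 and HOXD9 were at percentiles 86.8 and 88.4, HOXC10 at 79.3, HOXC9 at 62.2 and HOXC6 at 33.2. By rank the order was another, with HOXC10 at 5566, HOXD9 at 6535, HOXA9 at 8283, HOXC6 at 11955 and HOXC9 at 27987. HOXC13 had no event in the whole window, nor did the HOXC10:C13 chimeras.

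Jag1, a ligand of spinal progenitor domains, had 36 sites, 19 of them in its introns. The site with the most lists (13) lay at +52.0 kb inside Slx4ip, where HOXA9 had 241.6 reads (percentile 89.4), HOXD9 179.3 (87.3), HOXC10 135.3 (74.7) and HOXC9 120.3 (60.2), with no HOXC6 or HOXC13 event at day 3. An intronic site at +23.9 kb went the other way. HOXC13 had 602.1 reads there (percentile 96.1, rank 4476 of 115879), against 85.5 for HOXC9 (45.3), 117.0 for HOXA9 (69.3) and 129.1 for HOXD9 (77.7). HOXC9 at day 4 had 256.6 reads there (86.1). Of the sites with the most lists or top percentile of each gene, only this one was led by HOXC13 among day 3 full-length factors. Away from these, HOXC13 was also highest in percentile at Notch1 +2.9 kb (96.6, against 64.3 for HOXA9 and 63.0 for HOXD9).

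Jag2, the ligand of motor neurons and their precursors, had 5 sites, 1 of which was in more than 10 lists. That site lay at +59.9 kb, 1622 bp from the TSS of Gpr132. HOXD9 was at percentile 87.2, HOXC8 at 70.2, HOXA9 at 68.6, HOXC10 at 65.1 and HOXC9 at 37.7, and HOXC6 had no event at day 3.

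**Figure D3:**
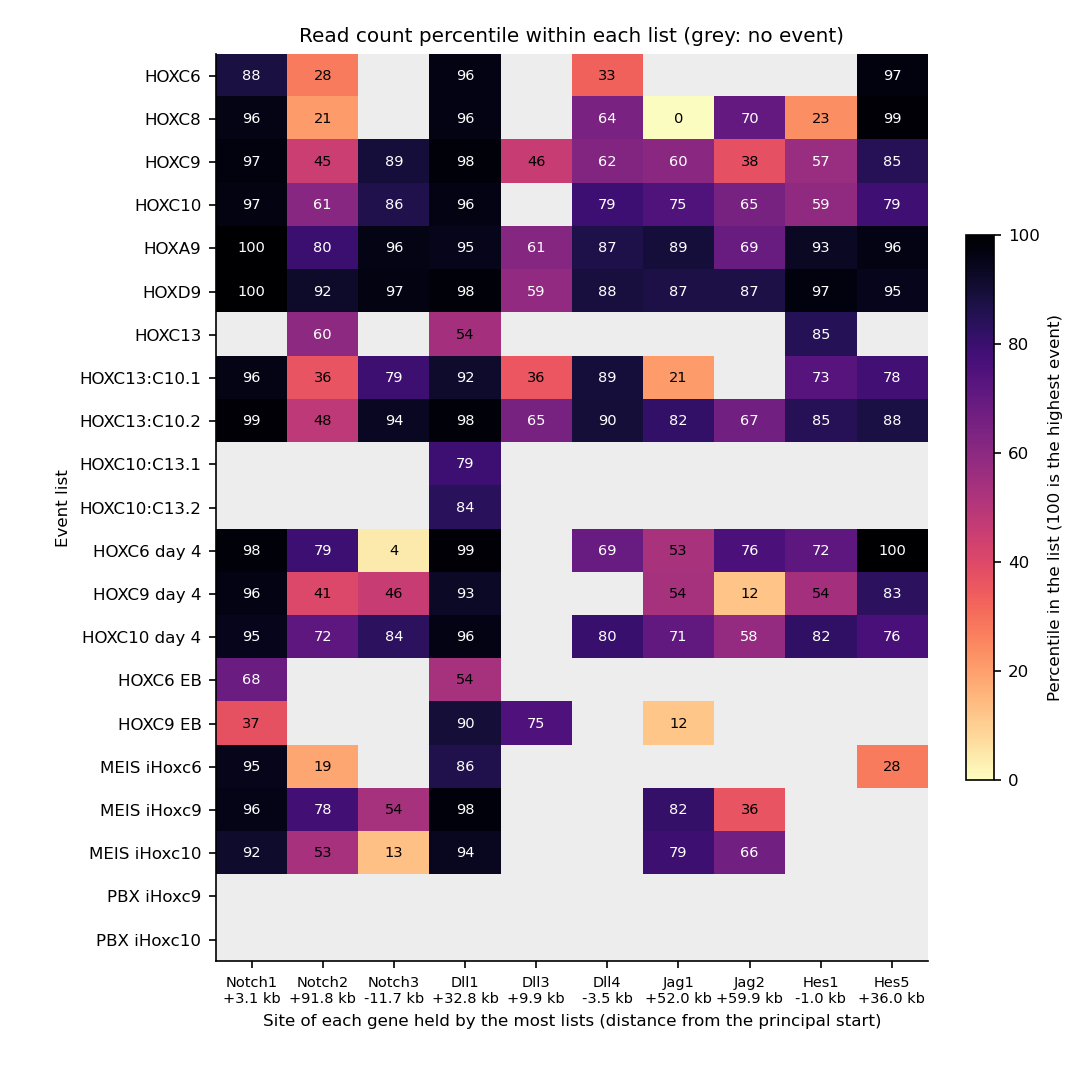
Percentile by reads within each list (colour and numeral, 100 is the highest event, rounded) of the site held by the most lists at each gene (columns), for the 21 lists (rows); grey cells have no event. The Notch1, Dll1 and Hes5 sites are above 75 in most day 3 lists of full-length factors, and the HOXC13 row has an event at 3 of the 10 sites, with a further one 166 bp from the centre of the Notch1 site.

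Hes1, the target gene that keeps progenitors cycling, had 36 sites, of which 1 was in 10 or more lists. That site lay 1.0 kb upstream of the principal start and 50 bp from another TSS of Hes1, and was held by 11 lists. Day 3 reads were 372.3 for HOXD9, 315.8 for HOXA9, 222.5 for HOXC13, 110.7 for HOXC9, 98.3 for HOXC10 and 47.2 for HOXC8. HOXD9 (percentile 97.2) and HOXA9 (93.3) were highest, HOXC13 was at 85.0, HOXC10 at 59.2, HOXC9 at 56.9 and HOXC8 at 23.5. In rank HOXC10 (10960 of 26873) stood before HOXC13 (17393 of 115879). HOXC6 at day 3, both EB lists and all MEIS lists had no event there. A weaker site at -135 bp was held by 5 lists, with 45.7 to 67.0 reads for the day 3 factors HOXC9, HOXA9, HOXD9 and HOXC13. In EBs HOXC9 had 3771.6 reads at -9.7 kb (rank 302 of 128388, percentile 99.8), a site picked after the values were seen. HOXC6 in EBs was at percentile 74.0 there and HOXC13 at day 3 at 52.4, and no other list had an event.

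Hes5, a target gene that follows Notch activity closely in the neural tube, had 9 sites, and no EB event apart from 1 of HOXC9. The site with the most lists (12), at +36.0 kb, lay inside Plch2 and 728 bp from a TSS of that gene. HOXC8 ranked it 666 of 44608 (825.0 reads) and HOXC6 543 of 17900 (380.8 reads), with HOXA9 at percentile 96.2, HOXD9 at 94.8, HOXC9 at 84.6 and HOXC10 at 78.8. HOXC6 at day 4 ranked it 144 of 69297 (2244.5 reads). At the Hes5 start itself (-171 bp, printed above) 10 lists had an event, with day 3 reads of 165.2 for HOXA9, 137.7 for HOXC6, 137.5 for HOXD9, 106.2 for HOXC9, 43.9 for HOXC13 and 39.2 for HOXC8. HOXC6, HOXA9 and HOXD9 were at percentiles 79.8 to 80.9, HOXC9 was at 55.2, and HOXC8 and HOXC13 were near the bottom of their lists at 12.0 and 1.56. HOXC10 had no event there at day 3 or day 4, and HOXC6 at day 4 was at 94.9.

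**Figure D4:**
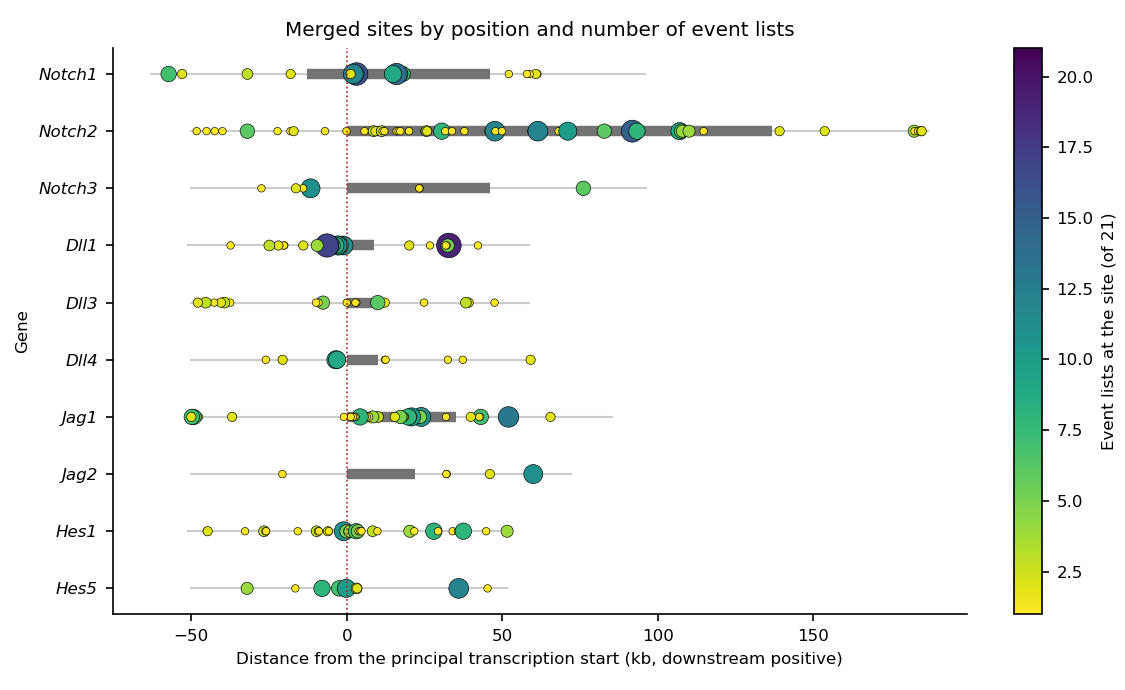
Sites of each gene by distance of the centre from the principal TSS (horizontal axis, kb, negative upstream), with the number of lists at the site (point size and colour); thick grey bars are gene spans, thin lines the windows and the dotted line the TSS. Dll1 carries its 2 most shared sites on opposite sides of the gene, while the Notch2 sites run along its introns.

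Factors were then compared over the 10 genes. HOXC9, HOXA9 and HOXD9 had an event at all 10 (70.4%, 76.5% and 77.6% of protein-coding genes have one), HOXC8 and HOXC10 at 9 (65.8% and 46.9%), and HOXC6 and HOXC13 at 7 (45.5% and 84.3%). Of the 228 sites HOXD9 held 78 (34.2% [28.1 to 40.8], against 14.7% of all sites), HOXA9 70 (30.7%, against 16.3%) and HOXC9 61 (26.8%, against 18.8%). HOXC8 held 40 (17.5%, against 11.4%), HOXC10 28 (12.3%, against 7.01%) and HOXC6 21 (9.21%, against 4.62%). HOXC13 alone of the 7 held a smaller share of these sites than of all sites, 47 or 20.6% [15.6 to 26.5] against 30.3%. At 132 sites with any of the 7 factors, 56 were held by 1 of them (61.2% of such sites genome-wide), and 4 by all 7 (1.6% genome-wide).

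Taken per 10000 events of the list, HOXD9 placed 14.2 [11.3 to 17.7] at the members, HOXC9 8.37 [6.42 to 10.7] and HOXC13 4.14 [3.05 to 5.49]. Some lists place fewer events near genes at all. Counted only among events in the windows of protein-coding genes, the members took 19.6 per 10000 for HOXD9, 13.09 for HOXC9 and 6.31 [4.65 to 8.36] for HOXC13, and they make up 7.99 per 10000 of the length of those windows. HOXC13 events also lay in sequence of lower GC content. Its median over 101 bases was 35.6% in the whole list, against 39.6% for HOXC9 and 43.6% for HOXD9, while the member sites were at 46.5% and all sites at 38.6%. The part of GC content in these counts was not tested.

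HOXC9 and HOXC10 shared 26 sites, HOXC9 alone held 35 and HOXC10 alone 2, so that HOXC9 held 92.9% of the HOXC10 sites (83% genome-wide). HOXC9 held 94.6% [81.8 to 99.3] of the sites of only 1 of them, against 91.6% genome-wide. Against HOXC6 the counts were 18 shared, 43 of HOXC9 and 3 of HOXC6, or 93.5% [82.1 to 98.6] against 92.2%, and HOXC9 held 85.7% of the HOXC6 sites (71.3% genome-wide). At the shared sites the HOXC9 event had the higher percentile at 14 of 26 against HOXC10 (64.9% genome-wide) and at 12 of 18 against HOXC6 (67.6%). The shares of sites of only 1 list were near those genome-wide. The lists were of unequal length, with 74085 events for HOXC9, 26873 for HOXC10 and 17900 for HOXC6. Their signal fractions were 0.284, 0.097 and 0.075 in the same order. The HOXC10 libraries were at 0.017 (5.04 M reads), 0.041 and 0.161. The part of signal fraction in these counts was not tested. With each HOX list cut to its 17900 events of most reads, the order turned around. HOXC9 then held 2 of 16 sites against HOXC10 (12.5% [1.55 to 38.4], 46.6% genome-wide) and 2 of 15 against HOXC6 (13.3% [1.66 to 40.5], 47.5% genome-wide). These lists had 10 HOXC9 events at 5 of the genes and 22 HOXC10 events at 9, while HOXC6 had its 22 events at 7. All 62 HOXC9 events at the members had a median percentile of 46.5 in the full list.

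The paralogs of group 9 were compared in 2 pairs. HOXA9 held 48 of the 61 HOXC9 sites and 22 that HOXC9 lacked, so that it held 62.9% [44.9 to 78.5] of the sites of only 1 of the pair, against 40% genome-wide. At 41 of the 48 shared sites (85.4%, against 50.3% genome-wide) the HOXA9 event had the higher percentile. Cut to equal length, HOXA9 had 15 sites without HOXC9 and HOXC9 had 1 without HOXA9 (93.8% [69.8 to 99.8], against 52.3%). HOXD9 and HOXA9 shared 54 sites, with 24 of HOXD9 only and 16 of HOXA9 only (60.0% [43.3 to 75.1], against 41.1%). At equal length these were 6 and 5. Factor and flow cell cannot be told apart for HOXC9 against HOXA9.

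**Figure D5:**
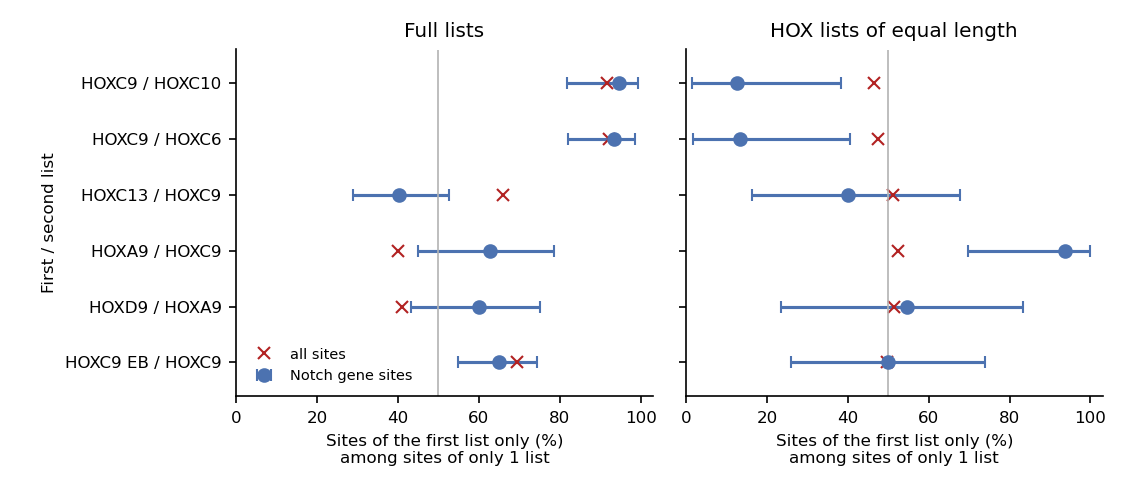
Share of the first list among sites held by only 1 of 2 lists (horizontal axis, percent), for full lists (left) and HOX lists of equal length (right); circles are Notch gene sites with exact 95% intervals and crosses all sites genome-wide. The shares of HOXC9 against HOXC10 and HOXC6 fall from 94.6% and 93.5% to 12.5% and 13.3%, while that of HOXA9 against HOXC9 rises from 62.9% to 93.8%.

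HOXC13 and HOXC9 shared 18 sites, with 29 of HOXC13 only and 43 of HOXC9 only. HOXC13 thus held 40.3% [28.9 to 52.5] of the sites of only 1 of them, against 66.1% genome-wide, and in the equal lists 6 of 15 ([16.3% to 67.7%], against 51.3%). The genes differed in this. At Notch2 HOXC13 had 12 sites of its own and HOXC9 4, at Dll1 2 and 11, and at Dll4 HOXC13 had none and HOXC9 3. HOXC13 held 24 of its 47 sites without any of the other 6 factors (51.1%, against 73.4% genome-wide).

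The chimeras were compared with the factors they were made from. The HOXC10:C13 chimeras, with the HOXC13 homeodomain, had few member events, 16 at 6 genes for the first and 17 at 7 for the second (63.3% and 72.4% of protein-coding genes have one). Their 16 and 17 sites were 7.02% and 7.46% of the member sites, against 16.2% and 22.7% of all sites. Per 10000 events of the list they placed 2.60 [1.49 to 4.23] and 1.97 [1.15 to 3.15] at the members, the lowest of the HOX lists. Their lists also had the lowest GC content (median 27.7%). HOXC13 held 11 of their 16 sites (68.8% [41.3 to 89.0], against 49.9% genome-wide) and 11 of 17 (64.7% [38.3 to 85.8], against 47.1%), and HOXC10 held 2 of 16 (10.6% genome-wide) and 3 of 17 (8.17%). HOXC9 held 7 of 16 (43.8% [19.8 to 70.1], against 19.6%) and 6 of 17 (35.3% [14.2 to 61.7], against 17.6%). At equal length the second chimera had 4 member sites, none of them with HOXC13, and no genome-wide share at that length is given.

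The HOXC13:C10 chimeras, with the HOXC10 homeodomain, had 76 events at 9 of the members and 74 at all 10 (78% and 76.8% of protein-coding genes have one), more than HOXC13 (48) or HOXC10 (28). Their sites were 70 and 72, or 30.7% and 31.6% of the member sites, against 24.5% and 21.7% of all sites. Of the 72 sites of the second chimera, HOXC10 held 27 (37.5% [26.4 to 49.7], against 30.3% genome-wide), HOXC13 18 (25.0% [15.54 to 36.6], against 29.2%) and HOXC9 52 (72.2% [60.4 to 82.1], against 63.6%). For the 70 sites of the first chimera, HOXC10 held 22 (31.4% [20.9 to 43.6], against 21.4%), HOXC13 21 (30.0% [19.6 to 42.1], against 37.5%) and HOXC9 43 (61.4% [49.0 to 72.8], against 54.5%). At equal length HOXC10 held 17 of 21 sites of the second chimera (81.0%), for which no genome-wide share at that length is given. The HOXC13:C10 chimeras shared 53 sites, and the first held 17 of the 36 sites of only 1 of them (47.2% [30.4 to 64.5], against 57.8% genome-wide). The HOXC10:C13 chimeras shared 13, and the first held 3 of the 7 sites of only 1 (42.9% [9.90 to 81.6], against 16.6%).

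Across stages, the day 4 HOXC9 sites were a subset of the day 3 sites, 24 of 24 (100.0% [85.8 to 100.0], against 82.3% genome-wide), while 24 of the 61 day 3 sites were held at day 4 (39.3% [27.1 to 52.7], against 49.2%). In the equal lists 5 of 7 day 4 sites were held at day 3, with no genome-wide share given for lists of that length. HOXC6 went the other way, with 20 sites at both days, 36 at day 4 only and 1 at day 3 only. Thus 35.7% [23.4 to 49.6] of its day 4 sites were held at day 3, against 24.7% genome-wide. In the equal lists 14 of 16 were, again without a genome-wide share. At 18 of the 20 shared sites, Dll1 -6.4 kb and Hes5 +36.0 kb among them, the day 4 event had the higher percentile (91.7% genome-wide). HOXC10 had 16 sites at both days, 14 at day 4 only and 12 at day 3 only (53.3% [34.3 to 71.7] of day 4 sites held at day 3, against 57.6%). Day 4 lists differed from day 3 lists in length, with 69297 events for HOXC6, 44024 for HOXC9 and 22027 for HOXC10. Their signal fractions were 0.308 for HOXC6, 0.163 for HOXC9 and 0.051 for HOXC10, against 0.075, 0.284 and 0.097 at day 3. Their control had 4.72 M reads, against 20.6 M at day 3. The part of these differences in the stage counts was not tested. The day 4 HOXC10 list held 30 of the member sites (13.16%, against 5.81% of all sites) at 9 genes (63.7% of protein-coding genes).

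Binding in EBs without patterning signals was mostly at other sites than at day 3. Of the 42 HOXC6 EB sites 3 were held by HOXC6 at day 3 (7.14% [1.498 to 19.5], against 7.8% genome-wide), and of the 91 HOXC9 EB sites 26 were held by HOXC9 at day 3 (28.6% [19.6 to 39.0], against 23.5%). These shares were near those of the whole lists. The HOXC9 EB list, the longest, held 39.9% of the member sites (33% of all sites), at 9 of the genes (89.3% of protein-coding genes). In all, 59 member sites were found only in EB lists (25.9%, against 21.5% of all sites). EB lists differed from day 3 lists in more than the patterning signals. They had 12 h of Dox against 24 h, and a control of fewer reads. Their length was 44751 events for HOXC6 and 128388 for HOXC9, against 17900 and 74085 at day 3. Signal fractions were 0.241 for HOXC6 and 0.475 for HOXC9, against 0.075 and 0.284. The part of these differences in the EB counts was not tested.

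The EB-only sites fell unevenly on the genes, 18 at Hes1, 14 at Notch2, 9 at Jag1, 7 at Dll3 and 5 at Dll1. At Hes1, 20 HOXC9 EB sites were not held at day 3, 7 day 3 sites were not held in EBs and 1 was in both. At Jag1, 12 were of EBs only and 1 of day 3 only, with 9 in both. Over all members 42.6% [30.0 to 55.9] of the day 3 HOXC9 sites were held in EBs, against 41.1% genome-wide. At Dll1 the counts were 5, 7 and 7, and at Notch1 4, 5 and 2. In the equal lists HOXC9 had 10 member sites at day 3 and 10 in EBs, with 1 in common, which leaves too few for counts by gene.

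MEIS proteins bind DNA with Hox factors, and their events at the members were few and mostly at Hox sites. MEIS had 7 sites in iHoxc6 cells (3.07% of the member sites, against 2.11% of all sites), 19 in iHoxc9 cells (8.33%, against 5.73%) and 11 in iHoxc10 cells (4.83%, against 3.33%). These lay at 4, 8 and 6 of the 10 genes (24.1%, 46.6% and 36.8% of protein-coding genes have a MEIS event in these lists). HOXC6 held 6 of the 7 (85.7% [42.1 to 99.6], against 57.5% genome-wide). HOXC9 held 16 of the 19 (84.2% [60.4 to 96.6], against 68.7%) and HOXC10 8 of the 11 (72.7% [39.0 to 94.0], against 57.8%). Conversely, MEIS held 26.2% [15.8 to 39.1] of the HOXC9 sites in iHoxc9 cells (20.9% genome-wide) and 28.6% [13.22 to 48.7] of the HOXC10 sites in iHoxc10 cells (27.4% genome-wide). Of 23 sites with any MEIS event, 3 had no HOX event (11.8% genome-wide). All 3 MEIS lists held 5 sites, 2 at Notch1, 2 at Dll1 and 1 at Notch2. Hes5 had 1 MEIS event, in iHoxc6 cells, and Dll4 none. Each MEIS list rests on 1 library.

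PBX had 1 event at Notch3 and 1 at Jag1 in iHoxc9 cells, at sites that no other list held (0.309% of all sites have one). In iHoxc10 cells it had none (0.225% of all sites), which allows up to 1.61% of the 228 sites by the exact interval. Each PBX list rests on 1 library, of 23.3 and 21.6 M reads, where the MEIS libraries had 9.70 to 12.1 M. The lists are short and have the low signal fractions given above, and the cause of their length was not tested. With lists this short, a missing PBX event says little about PBX at these genes.

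The letters that Hox homeodomains favour were scarcer at member sites than at all sites. Within 50 bp of the centre, on either strand, TTTAT was present at 104 of 228 sites (45.6%, against 61.2% of all sites), TAAT at 131 (57.5%, against 72.4%) and TTTAC at 43 (18.9%, against 30.3%). The member sites were also richer in GC, as given above. Among sites with 39.6 to 53.5% GC, a range chosen after the values were seen, TTTAT was at 58 of 126 member sites (46.0% [37.1 to 55.1]) against 44.5% of 163789 sites, and TAAT at 60.3% [51.2 to 68.9] against 61.3%. TTTAC was at 16.7% [10.6 to 24.3] against 24.8%. TGGGAA, the RBPJ core, was at 31 of 228 sites (13.6%, against 7.61% of all sites) and in that range at 15.9% [9.97 to 23.4] against 9.75%. A match is a description of these letters only.

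By factor, TTTAT was within 50 bp of 32 of 62 HOXC9 events at the members (51.6% [38.6 to 64.5], against 62.4% of the whole list) and of 35 of 48 HOXC13 events (72.9%, against 78.8%). The HOXC10:C13 chimeras had it at 15 of 16 and 15 of 17 (89.2% and 90% of their lists). TAAT was at 36 of the 62 HOXC9 events (58.1%, against 74.7%). HOXC9 events at sites shared with HOXC10 held TTTAT at 14 of 26 and the others at 18 of 36.

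The members were set beside 33 other genes of the Notch pathway and 12 Hedgehog pathway genes. HOXC9 had an event at 30 of the 33 other Notch genes and at 11 of the 12 Hedgehog genes (70.4% of protein-coding genes have one). The median HOXC9 density was 4.18 events per 100 kb for the 10 members, 1.97 for the other Notch genes and 4.20 for the Hedgehog genes, against 0.985 for protein-coding genes. For HOXC13 these were 2.18, 3.28 and 5.77 against 2.59, so the members were the only one of the 3 lists with a median below that of protein-coding genes. The other Notch genes with the most HOXC9 events were Maml3 (45) and Maml2 (23), long genes that encode coactivators of the Notch complex, and Dner (11), which encodes a Notch ligand-like protein of neurons. For Notch2, the member with the most sites, the genes with the most similar depth-scaled reads over the 16 HOX lists were Tiam1, Nr2e1 and Efna5 (Pearson r of 0.956, 0.954 and 0.952 on a log2 scale). The median r of 17268 candidate genes was 0.541. These lists differ in depth (32.5 to 98.1 M reads) and in their controls, so the similarity is a description only.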

How the data were processed

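The authors aligned ChIP-seq reads to mm10 with Bowtie 1.0.1, keeping unique best hits (the submitters' processing notes also name Picard 2.8.2 and edgeR 3.22.5), and called events with MultiGPS per condition over pooled libraries and a control, with q-values below 0.001. The 21 deposited event lists give for each event the signal (estimated ChIP and control reads, not whole counts), the log2 fold over control and a log2 q-value treated as a score. The deposited position tracks carry a capped score and were used only to check positions, which were the same in 21 of 21 lists. The authors' edgeR columns of log2 fold changes and q-values between conditions were not used. An anti-Flag and an input control library entered no comparison.

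Groups came from the labels. The members and lists were chosen with earlier results of these data known. Events in the window of a member (GENCODE release 21, span plus 50 kb) were merged at 100 bp. A site was described with the highest event of each list. Named for each member were the site with the most lists, the site with the highest percentile in a day 3 full-length list and up to 2 sites within 1 kb of a TSS held by at least 3 lists. Sequence was read from RefSeq GRCm38.p6, where 737 of 737 deposited sequences at member events were found within 100 bp of the event. The principal transcript is the one GENCODE tags as APPRIS principal, and 9 of the 10 members had an entry in the RefSeq promoter table. Apart from the unused columns each list gives 1 pooled value per event, so no test between groups was made and libraries could not be left out in turn. Alternatives changed the merging distance, the window, the list length, the ranking and the motif. Python 3.11.15, numpy 2.4.6, pandas 2.3.3 and SciPy 1.17.1 were used, and the functions were tested on simulated data.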

Additional observations from a re-analysis of the deposited data

How the results depend on the processing

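No paired analysis was possible because each list pools its libraries and the files carry no value per replicate. Of 113 values of 16 results under an alternative, 91 stayed within the counting interval of the reported value. Of the others, 18 moved out of it and 4 turned around. The counts of sites and of genes have no interval and were held to a fixed fold limit instead. List length had most of the values that moved or turned around. With HOX lists cut to 17900 and MEIS lists to 8219 events by reads, the HOXC9 share of sites of only 1 list was 12.5% against HOXC10 and 13.3% against HOXC6, and by q-value 7.69% and 11.8%. By reads, 78 sites were left and 5 members had a HOXC9 event. The median percentile of these events in the full list was 92.1, a rise fixed by the cut, which keeps only the highest events. A day 3 event was at 87.5% of day 4 HOXC6, 71.4% of day 4 HOXC9 and 10.0% of EB HOXC9 sites. HOXC13 held 0.0% of HOXC10:C13.2 sites and HOXC10 81.0% of HOXC13:C10.2 sites. By q-value the shares were 81.3%, 71.4%, 10.0%, 25.0% and 71.4%. The equal lists hold fewer events by construction, so their shares rest on 4 to 21 sites. For shares of the sites of a list held by another, no genome-wide value at equal length is given.

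Windows of 100 kb on each side held 357 sites, and among sites nearest to a member's TSS the HOXC9 share against HOXC6 was 100.0%. TTTAT at HOXC9 events was 33.9% within 25 bp, 71.0% for TTAT and 30.7% for TTTATNG. Merging distances of 50 and 200 bp and windows of 20 kb moved no recomputed share or median past its interval. The number of sites, held to the fold limit only, was then 267, 202 and 157. Ranking by q-value, used for the median percentile of HOXC9 events only, gave 43.6. The merging distance does decide whether HOXC13 shares the Notch1 +3.1 kb site, as its event lies 166 bp from the centre. After the data were seen, the number of sites was also recounted without the EB lists (171), without the HOXA9, HOXD9 and HOXC13 lists (192) and without the PBX lists (226). The PBX lists are short and have low signal fractions, and the cause of their length was not tested.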
